A study of Mus musculus with 9 samples.

Results

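The HOX clusters of mouse periosteal stem and progenitor cells are described here from 38 Hox genes of HOXA, HOXB, HOXC and HOXD. A Hox gene is called marked where an H3K4me3 peak named for it in the deposited annotation lay within 3 kb of its transcription start site (TSS), and PLAGL1 peaks were taken by the same gene names. This gave 7 of 16251 H3K4me3 peaks and 6 of 3463 PLAGL1 peaks, at 11 of the 38 genes. KLF4 sites were added where they overlapped one of these 13 peaks or lay within 10 kb of one, which gave 1 of 21130 sites. The remaining 27 genes had no peak in either list.

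CUT&Tag, in which an antibody directs a transposase to its target in permeabilised cells, was run on cells taken from the mandibular angle of mice at 8 weeks of age and kept for 3 days in osteogenic medium (ascorbic acid, β-glycerophosphate and dexamethasone). All 9 libraries came from cells with floxed Plagl1 alleles. A PLAGL1-HA library and its IgG control (1 each) came from Plagl1fl/fl cells given a lentivirus for HA-tagged PLAGL1, and 1 H3K4me3 library came from Plagl1fl/fl cells whose label names no virus. KLF4-FLAG was profiled in 3 libraries of Plagl1fl/fl cells and 3 of Ctsk-iCre;Plagl1fl/fl cells, all given a lentivirus for FLAG-tagged KLF4 at a multiplicity of 10. The factor peaks therefore report supplied, tagged proteins, and Ctsk-iCre deletes Plagl1 in cells that have expressed cathepsin K. The treatment labels of the KLF4 libraries name vectors from Klf4 to Klf9 while every title says KLF4, so the libraries were taken as KLF4. PLAGL1, IgG and H3K4me3 had no replicates, and no source used here gives the read depth of a library. All 14 periosteal and skeletal progenitor markers were marked by H3K4me3, as were 5 of 6 macrophage and osteoclast markers (scores 35 to 276), 1 of 4 endothelial and 0 of 4 skeletal muscle markers. The part of such other cells in the weak Hox peaks was not tested.

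Hox genes encode homeodomain transcription factors that give cells their position along the head-to-tail axis and the limbs. Genes at the 3′ end of a cluster (low paralogue numbers) act toward the head, genes at the 5′ end (high numbers) act toward the tail and the tips of the limbs, and Polycomb complexes hold clusters silent outside their domains. The skeleton of the mandible comes from neural crest cells of the first pharyngeal arch, which are known for building the jaw without Hox expression. H3K4me3 is a histone mark of active and poised promoters. PLAGL1 is an imprinted zinc-finger factor that binds GC-rich DNA, and KLF4 is a Krüppel-like factor that binds GC-rich and CACCC-type sequences.

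Promoter sequences are shown for 5 genes that the results turn on: the 3 genes with the highest H3K4me3 scores (Hoxb4, Hoxa3, Hoxa5), Hoxa7, which had the single KLF4 site of the set, and Hoxa13, a limb-tip gene with a PLAGL1 peak and no mark. Each run gives the 250 bases before the RefSeq start site, read 5′ to 3′ along the gene, with CpG dinucleotides in capitals. The windows are of the build GRCm38.p6 and the peaks of mm39, so their coordinates do not line up directly. They were not converted. They are chr11:96318017-96318266 on the plus strand for Hoxb4 and, on the minus strand, chr6:52213068-52213317 for Hoxa3, chr6:52204588-52204837 for Hoxa5, chr6:52218574-52218823 for Hoxa7 and chr6:52260881-52261130 for Hoxa13.
Hoxb4: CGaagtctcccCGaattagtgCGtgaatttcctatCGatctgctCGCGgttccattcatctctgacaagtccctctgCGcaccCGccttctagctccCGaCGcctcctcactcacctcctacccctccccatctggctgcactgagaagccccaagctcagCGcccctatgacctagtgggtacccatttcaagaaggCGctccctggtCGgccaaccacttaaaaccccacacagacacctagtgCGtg
Hoxa3: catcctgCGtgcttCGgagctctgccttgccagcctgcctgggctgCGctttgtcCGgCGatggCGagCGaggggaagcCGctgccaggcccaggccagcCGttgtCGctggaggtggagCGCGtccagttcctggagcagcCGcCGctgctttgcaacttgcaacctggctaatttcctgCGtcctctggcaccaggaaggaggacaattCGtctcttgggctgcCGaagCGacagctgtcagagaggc
Hoxa5: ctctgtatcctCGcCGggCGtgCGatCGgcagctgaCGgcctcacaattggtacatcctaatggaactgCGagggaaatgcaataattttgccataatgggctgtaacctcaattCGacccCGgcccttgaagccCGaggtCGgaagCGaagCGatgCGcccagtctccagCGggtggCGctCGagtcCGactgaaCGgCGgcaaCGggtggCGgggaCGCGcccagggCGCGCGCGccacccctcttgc
Hoxa7: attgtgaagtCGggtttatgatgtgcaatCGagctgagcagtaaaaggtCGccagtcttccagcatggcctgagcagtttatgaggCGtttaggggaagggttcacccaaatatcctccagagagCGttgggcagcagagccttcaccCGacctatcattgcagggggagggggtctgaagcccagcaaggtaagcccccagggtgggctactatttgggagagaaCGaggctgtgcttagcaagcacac
Hoxa13: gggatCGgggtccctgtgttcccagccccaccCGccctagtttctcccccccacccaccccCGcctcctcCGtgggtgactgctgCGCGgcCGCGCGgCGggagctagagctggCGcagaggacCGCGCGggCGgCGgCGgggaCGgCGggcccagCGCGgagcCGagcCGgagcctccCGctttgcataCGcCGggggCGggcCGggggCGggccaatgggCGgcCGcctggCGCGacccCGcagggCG

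Of the 38 Hox genes, 22 had a window in this RefSeq table. CpG dinucleotides numbered 14 at Hoxb4, 18 at Hoxa3, 28 at Hoxa5, 7 at Hoxa7 and 35 at Hoxa13. Corrected for base composition, the observed-to-expected CpG ratio had a median of 0.69 over 5 marked Hox promoters (range 0.49 to 1.11) and 0.52 over 17 unmarked ones (range 0.16 to 0.97). Both ranges overlap widely. The median was 0.73 over promoters of all marked genes and 0.23 over those of unmarked protein-coding genes, so the median of the unmarked Hox promoters lay between these. The 8-letter core GGGGCCCC, searched for PLAGL1, was in 0 of 22 Hox windows and in 0.88% of all 27025 windows of this length. The letters GGGNGTGG, searched on both strands for KLF4, were in 5 of 22 Hox windows and in 15.8% of all. Those 5 were Hoxa2, Hoxa13, Hoxb1, Hoxd12 and Hoxd13, each unmarked, with a second match at Hoxb1 and Hoxd12 that overlaps the first by a few bases. At Hoxa13 the match begins 196 bases before the start site.

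Few Hox genes carried the promoter mark, and those that did carried it weakly. The mark was found at 7 of 38 genes, or 18.4% (Wilson 95% interval 9.22% to 33.4%, counting error only), against 51.3% of all 21900 protein-coding genes. The marked genes were Hoxa3, Hoxa4, Hoxa5, Hoxb4, Hoxc13, Hoxd8 and Hoxd9. By paralogue number these were 1 of 7 genes of groups 1 to 3, 4 of 15 of groups 4 to 8, and 2 of 16 of groups 9 to 13. The gene of groups 1 to 3 was Hoxa3, whose peak lay between the start sites of Hoxa5 and Hoxa7. By cluster the marked genes were 3 of 10 in HOXA, 1 of 10 in HOXB, 1 of 9 in HOXC and 2 of 9 in HOXD. No cluster was marked along its whole length.

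**Figure D1:**
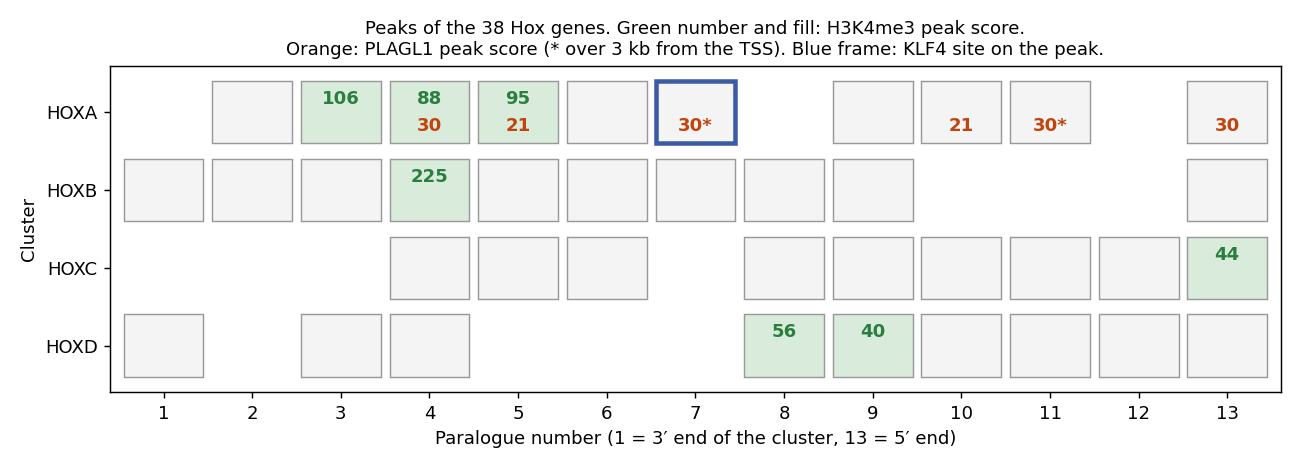
Peaks of the 38 Hox genes by cluster (rows) and paralogue number (columns), with H3K4me3 peak scores in green, PLAGL1 peak scores in orange and a blue frame for a KLF4 site on the peak. Grey cells are genes without a mark and empty places hold no gene of the set. By paralogue number, marks fall in neighbouring columns at Hoxa3 to Hoxa5 and Hoxd8 to Hoxd9 and singly at Hoxb4 and Hoxc13. On the chromosome the Hoxa3 peak lies between the start sites of Hoxa5 and Hoxa7. All 6 PLAGL1 peaks are in HOXA.

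The strongest H3K4me3 peak was at Hoxb4, a gene known for its part in expanding blood stem cells, and stood apart from the other Hox peaks in score and width. It lay at chr11:96208930-96210248 (mm39) over the 5′ UTR, 496 bp from the TSS, with a score of 225. Scores are the authors' own values of each peak, and 30.9% of the H3K4me3 list scored lower. Its width of 1319 bp was close to the median of 1287 bp for peaks near a TSS. The other 6 Hox peaks were 252 to 707 bp wide.

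The H3K4me3 peaks named for HOXA genes of the set were 3 separate short ones. Hoxa4, which patterns the neck vertebrae, had a peak with a score of 88 at chr6:52168706-52169317, 328 bp upstream of its TSS. Hoxa5, which acts in the cervical and thoracic skeleton and the lung, had a score of 95 at chr6:52180544-52181250. That peak was annotated to the transcript end of Hoxa6, the neighbour on the 5′ side, and its centre was 670 bp from the Hoxa5 TSS. The peak named for Hoxa3, a gene of the third pharyngeal arch, thymus and parathyroid, had a score of 106 at chr6:52189663-52190194. It sat in an intron of the non-coding gene Hoxaas3, 119 bp from the Hoxa3 start site of the deposited annotation, and lay 8.41 kb beyond the Hoxa5 peak, away from Hoxa4. The 3 peaks named for Hoxa3, Hoxa4 and Hoxa5 all stood between the start sites of Hoxa4 and Hoxa7.

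HOXD and HOXC had still lower scores. Hoxd8 had a peak with a score of 56 at chr2:74535592-74535843, 116 bp from its TSS, and Hoxd9, which acts with other group 9 genes in the upper limb, had one of 40 in exon 1 at chr2:74528404-74528722. Another small peak of this stretch, with a score of 47, was named for the non-coding gene Gm38462 and lay 6.60 kb from the Hoxd8 peak (named after its value was seen). Hoxc13, a gene of hair and nail, had the only peak named for a HOXC gene, with a score of 44 in exon 1 at chr15:102830078-102830509. The digit genes Hoxd11, Hoxd12 and Hoxd13 and the whole of Hoxc4 to Hoxc12 had none. The list begins at a score of 20, and its median was 617 over all peaks and 790 over those near a TSS, against 88 over the 7 Hox peaks. Only 3.83% of the list scored below the Hoxd9 peak and 5.50% below the Hoxc13 peak.

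**Figure D2:**
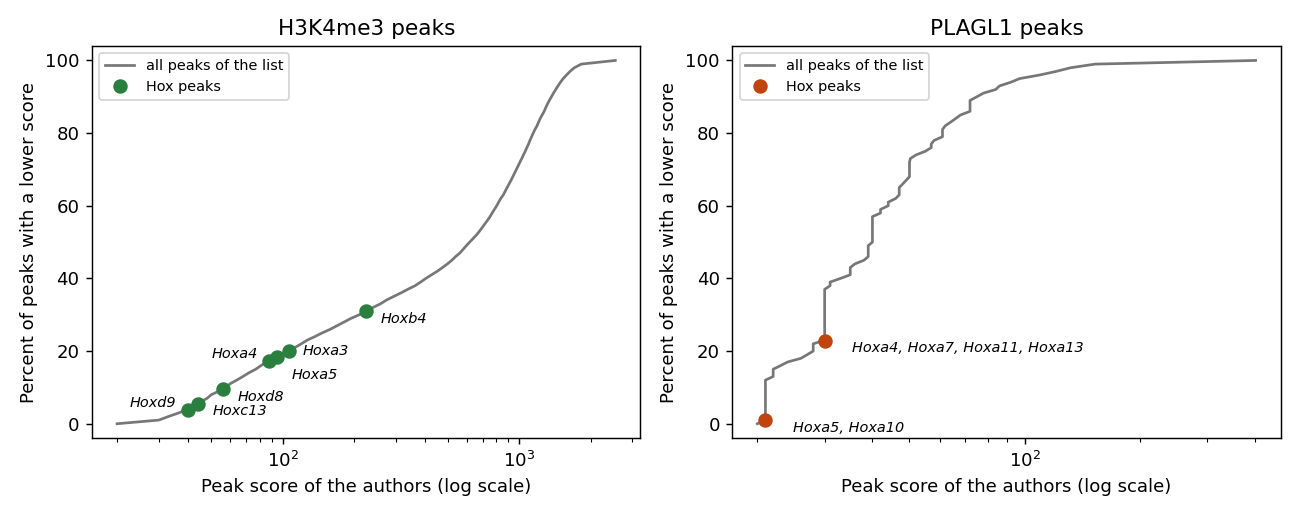
Share of peaks with a lower score (vertical, percent) against the peak score of the authors (horizontal, log scale), for the whole list (grey line) and the Hox peaks (points), with H3K4me3 on the left and PLAGL1 on the right. The 7 H3K4me3 points lie between 3.83% and 30.9% of their list, and the 6 PLAGL1 points, several on top of each other, between 0.92% and 22.8%.

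Among the 38 genes, PLAGL1 peaks were named for 6 of the 10 in HOXA, from Hoxa4 to Hoxa13, and for 0 of the 28 in the other clusters. Their scores took 2 values. Hoxa4, Hoxa7, Hoxa11 and Hoxa13 had 30 each, a score shared by 523 peaks of the list, and Hoxa5 and Hoxa10 had 21, shared by 391. The list begins at 20 and has a median of 40, so every Hox peak was in its lower part. Widths ran from 119 to 184 bp, against a median of 188 bp.

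None of these peaks was at a core promoter. Distances to the TSS of the named gene were 1424 bp at Hoxa5, 1494 bp at Hoxa13, 1501 bp at Hoxa10, 2466 bp at Hoxa4, 3402 bp at Hoxa7 and 5376 bp at Hoxa11. Over the whole list 38.5% of PLAGL1 peaks were within 1 kb of a TSS. The Hoxa5 peak (chr6:52180084-52180202) and the Hoxa13 peak (chr6:52236292-52236450) were in the only intron of each gene. The Hoxa10 peak (chr6:52213360-52213480), at a gene known for its role in the uterus, was in the intron of a longer Hoxa10 transcript. The Hoxa4 peak (chr6:52166127-52166308) was at that gene's transcript end. The peaks upstream of Hoxa7 (chr6:52198872-52199039) and of Hoxa11 (chr6:52228075-52228258), a gene of the forearm and kidney, were intergenic.

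Within 3 kb of the TSS, 4 of 38 Hox genes had a PLAGL1 peak (10.5%, Wilson interval 4.17% to 24.1%), against 5.82% of all protein-coding genes. These were Hoxa4, Hoxa5, Hoxa10 and Hoxa13, and the interval includes the share over all genes. The 6 peaks of the set were spaced along 70.3 kb, with 8.03 to 18.7 kb between neighbours. A further PLAGL1 peak with a score of 30, named for the non-coding gene 5730596B20Rik, lay 9.76 kb from the Hoxa4 peak on the 3′ side (named after its value was seen). Windows of the same 70.3 kb, opened at each PLAGL1 peak of the list in turn, held a median of 1 peak, and 3.00% of them held 6 or more, with a maximum of 14. These windows overlap and include those in HOXA. Their length and the count of 6 were both taken from the HOXA peaks, so the share does not measure how unusual that spacing is.

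**Figure D3:**
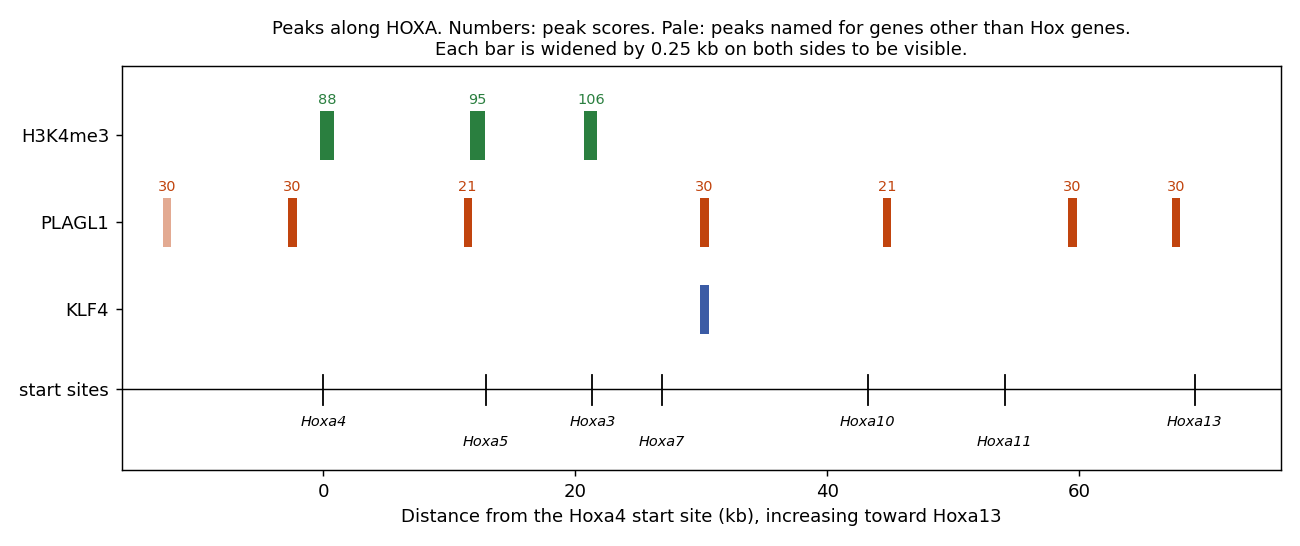
Peaks along HOXA by list (rows) against distance from the Hoxa4 start site in kb, with peak scores as numbers and start sites derived from the deposited distances. The 3 H3K4me3 peaks stand at the start sites of Hoxa4, Hoxa5 and Hoxa3, the 6 PLAGL1 peaks run through to Hoxa13, and the KLF4 site is on the Hoxa7 PLAGL1 peak.

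Of the 11 Hox genes with a peak, 2 had both PLAGL1 and the promoter mark, Hoxa4 and Hoxa5. All PLAGL1 peaks of the set were in HOXA, where 3 of 10 genes were marked, 6 had PLAGL1 and 2 had both. These counts do not set the 2 kinds of peak apart by gene. At Hoxa5 the peaks were 342 bp apart, and at Hoxa4 2.40 kb. Of the 6 Hox PLAGL1 peaks 0 overlapped an H3K4me3 peak (Wilson 95% interval 0% to 39.0%), while 48.7% of all PLAGL1 peaks did, as did 39.4% of the 1313 with scores up to 30. The other 4, at Hoxa7, Hoxa10, Hoxa11 and Hoxa13, were between 8.68 kb and 46.1 kb from the nearest H3K4me3 peak. From Hoxa7 to Hoxa13 no H3K4me3 peak was listed.

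KLF4 sites were few by the rule of the set, which looks only near its peaks and not at Hox genes without one. The 1 site in the set covered the whole PLAGL1 peak upstream of Hoxa7 (chr6:52198822-52199050, 229 bp wide, 168 bp shared). That is 1 of 6 Hox PLAGL1 peaks (16.7%, Wilson interval 3.01% to 56.4%), against 62.4% of all PLAGL1 peaks and 50.7% of those with scores up to 30. The same site was 8.63 kb from the Hoxa3 H3K4me3 peak. None of the 7 Hox H3K4me3 peaks overlapped a KLF4 site (interval 0% to 35.4%), against 60.6% of all H3K4me3 peaks and 645 of the 2484 near a TSS with scores up to 225. For the marked Hox genes other than Hoxa3, the distance from the H3K4me3 peak to the nearest KLF4 site was also taken. It was 17.6 kb at Hoxa5, 29.5 kb at Hoxa4, 29.8 kb at Hoxd9, 37.0 kb at Hoxd8, 45.9 kb at Hoxb4 and 199 kb at Hoxc13.

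The clusters were then set against the nearest marked promoters of other protein-coding genes on both sides, which carried high scores. HOXA lay between Skap2 (H3K4me3 score 723) and Hibadh (1349), 626 kb apart. HOXB lay between Atp5mc1 (1147) and Snx11 (979), 701 kb apart. HOXC lay between Calcoco1 (820) and Smug1 (568), 440 kb apart, and HOXD between Lnpk (1834) and Mtx2 (1453), 246 kb apart. The median interval between such promoters over the genome was 62.5 kb, and 82.2% (HOXD) to 93.4% (HOXB) of intervals were shorter. Hox peaks were left out when these promoters were chosen, so each stretch spans a whole cluster by construction. Intervals elsewhere end at any marked protein-coding promoter. These shares therefore cannot show whether the clusters are unusually bare. KLF4 sites in these stretches numbered 2 for HOXA, 2 for HOXB, 1 for HOXC and 1 for HOXD. That was 0.23 (HOXC) to 0.41 (HOXD) sites per 100 kb, against 0.78 over all chromosomes. The stretches hold no marked promoter of other protein-coding genes, so the 2 rates are not like for like.

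One mark inside the HOXA stretch, not at a gene of the set, scored above the 7 Hox H3K4me3 peaks. Its score was below the list median of 617. The H3K4me3 peak named for Hotairm1, a non-coding RNA gene at the 3′ end of HOXA known from myeloid cells, had a score of 456. Its width was 2344 bp (chr6:52134815-52137158), and a KLF4 site lay on it (chr6:52135346-52136100). The deposited annotation put this peak at the promoter of a protein-coding transcript, so it cannot be credited to Hotairm1 alone. The peak was 29.0 kb from the nearest peak of the set, at Hoxa4. Of 31 genes listed in and beside the clusters, 9 were marked (29.0%), against 51.3% of all protein-coding genes. The list holds non-coding genes too. Only 29 of its names were in the RefSeq tables, so the others may be missing by name alone. Hotairm1 was the only one of the 9 that lies inside a cluster. Hotair, Hottip, Hoxaas2, Hoxaas3, Evx1, Evx2 and the microRNA genes Mir10a, Mir10b, Mir196a-1, Mir196a-2, Mir196b and Mir615 had no H3K4me3 or PLAGL1 peak within 3 kb of a TSS named for them. The lncRNA gene Halr1 had 2 PLAGL1 peaks upstream, with scores of 47 and 39, at 35554 bp and 22662 bp from its TSS. An H3K4me3 peak named for it scored 31, at 38561 bp. In the HOXC stretch an H3K4me3 peak was named for Cistr (118) and a PLAGL1 peak for D930007P13Rik (22), both named after their values were seen.

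The cofactor, Polycomb and trithorax lists were marked at every gene. The PBX, MEIS and PKNOX homeodomain cofactors, which bind DNA together with Hox proteins, were marked at 9 of 9 genes, with a median score of 594 and examples in Meis3 (1102) and Pbx3 (784). PLAGL1 peaks were at 3 of them, among these Pbx3 (57) and Pknox2 (50). Polycomb genes were marked at 15 of 15, with Ezh2 at 1357, Suz12 at 1278 and Eed at 1141 for the complex that methylates H3K27. PLAGL1 peaks were at 3 of them, among these Cbx8 (88) and Jarid2 (81). The trithorax and H3K27 demethylase list, whose members oppose Polycomb, was marked at 7 of 7, among them Kmt2b (1349), Kdm6a (1271) and Kmt2a (1074), with a PLAGL1 peak at Kdm6b (24).

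Upstream regulators split by kind. The retinoic acid receptors were marked, with Rara at 688, Rarg at 568 and Rarb at 141, and PLAGL1 peaks were at Rara (score 109) and Rarg (20). The hindbrain regulator Egr2 (518) was marked as well. The caudal factors Cdx1, Cdx2 and Cdx4, which drive trunk Hox genes, and the retinoic acid-degrading enzymes Cyp26a1 and Cyp26b1 were not, which left 6 of 11 marked.

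Homeobox and other patterning genes of the first arch gave the nearest comparison. They were marked at 22 of 24 genes, with Otx2 among the exceptions and a median score of 297.5, between that of the marked Hox genes (88) and that of all marked protein-coding genes (850). Dlx2 had 1268, Prrx2 814 and Msx1 504, while Hand1 had 63, near the scores of the HOXC and HOXD peaks. PLAGL1 peaks were at Msx1 (22 bp from the TSS, score 40), Barx1 (255 bp, 47) and Lhx6 (1788 bp, 30). A KLF4 site on the marked promoter was found at 6 of the 24 first-arch genes, 5 of 9 cofactors, 12 of 15 Polycomb genes and 0 of 38 Hox genes, against 7688 of 21900 protein-coding genes. Unmarked genes could not enter these counts. That left 7 Hox genes, 22 first-arch genes and 11229 protein-coding genes that could. The H3K4me3 and PLAGL1 counts come from single libraries, the KLF4 sites are a consensus over both groups, and no difference between lists was tested.

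**Figure D4:**
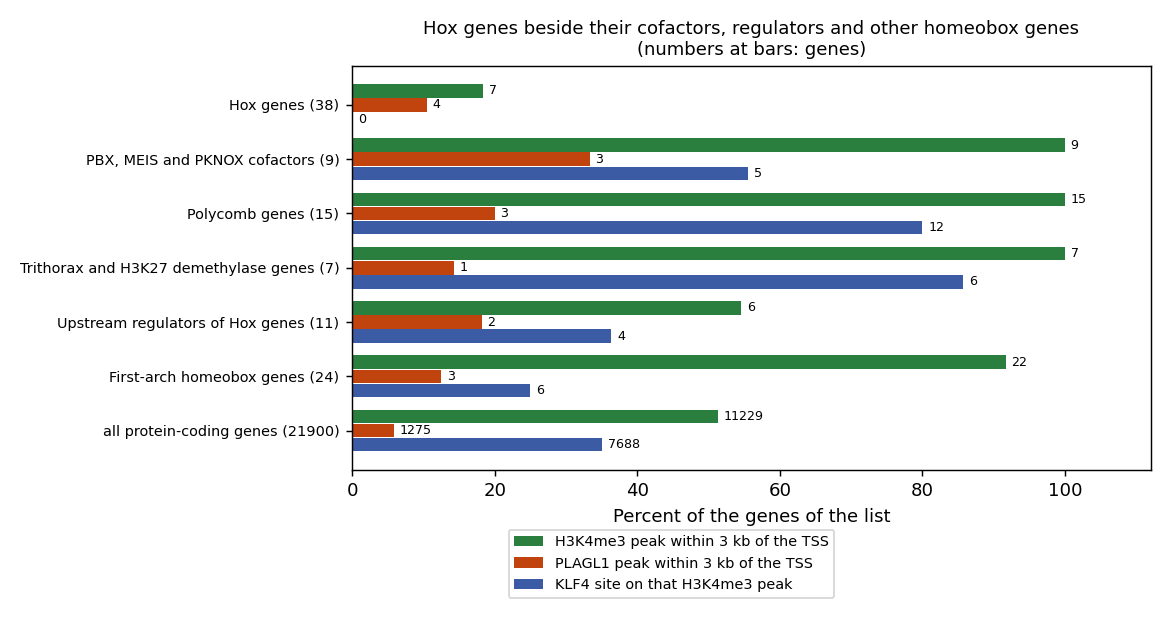
Percent of the genes of each list with an H3K4me3 peak (green) or a PLAGL1 peak (orange) within 3 kb of the TSS, and with a KLF4 site on that H3K4me3 peak (blue), with gene counts at the bars and list sizes in parentheses. The mark is at 7 of 38 Hox genes, beside 22 of 24 first-arch genes and 9 of 9 cofactors.

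KLF4 occupancy in control and Plagl1-deficient cells was compared in the authors' deposited table, which credits edgeR. It holds 1 log2 fold change per site, and whether a positive sign means more KLF4 in control or in Plagl1-deficient cells is not given there. At the Hoxa7 site the authors' deposited table gave a log2 fold change of 0.14 (approximate SE 0.32, 95% interval -0.49 to 0.77), with p = 0.66 and adjusted p = 0.97 by edgeR over all sites. Its mean signal of 3.88 log2 CPM was low, with 7.22% of sites lower. Thus 0 of 1 site of the set was called at an adjusted p under 0.05, against 0.0473% of all sites. At an unadjusted p under 0.05 the counts were 0 of 1 and, over all sites, 1364 of 21130. The interval includes changes of either sign.

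The other KLF4 sites in the stretches between flanking promoters gave similar values in the authors' deposited table. The distances given for them run to the nearest peak of the set. How far these sites lie from Hox genes without a peak was not measured on mm39, so a site may be at such a gene. The site on the Hotairm1 peak had a log2 fold change of 0.41 (-0.08 to 0.90, adjusted p = 0.82 by edgeR), the largest of the 6. A site 45.9 kb from the Hoxb4 peak, on the side of Hoxb5 to Hoxb9 (chr11:96162615-96163006), had 0.39 (-0.20 to 0.98, adjusted p = 0.88 by edgeR). A site 29.8 kb from the Hoxd9 peak, on the side of Hoxd10 to Hoxd13 (chr2:74497948-74498605), had 0.01 (-0.47 to 0.49, adjusted p = 0.997 by edgeR). On GRCm38 the Hoxd13 window (chr2:74667975-74668224) is about as far from the Hoxd9 window (chr2:74697513-74697762). If that spacing holds on mm39, this site lies at the promoter of Hoxd13, a gene without a peak. The builds were not converted. The remaining sites, 204 kb from Hoxc13 and 446 kb from Hoxb4, had 0.02 and -0.06. All 6 intervals include 0, and 0 of the 6 had an unadjusted p under 0.05 in the authors' deposited table, where 1364 of all 21130 sites had one.

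**Figure D5:**
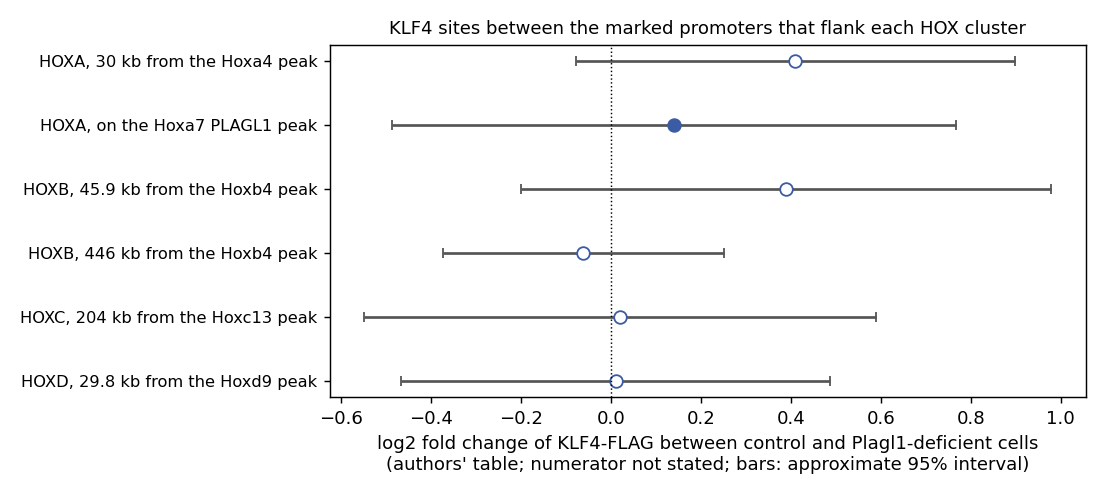
Log2 fold change of KLF4-FLAG between control and Plagl1-deficient cells in the authors' deposited table (points) with approximate 95% intervals (bars) for 6 KLF4 sites, the filled point being the site on a Hox peak. Values run from -0.06 to 0.41 and every interval crosses 0.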

How the data were processed

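Per the submitters' processing notes, in alphabetical order, the tools were Bowtie2 2.5.4, deepTools 3.5.5, DiffBind 3.16.0, edgeR 4.2.0, GATK 4.5.5.0, HOMER 4.11.1, MACS3 3.0.2, SAMtools 1.21 and Trim Galore 0.6.10, and the build was mm39. PLAGL1 peaks of HA against IgG and H3K4me3 peaks of 1 library were deposited with a peak score, a gene name and a distance to the TSS, per the file headers. Whether H3K4me3 had a control, and how duplicates and reads with several matches were treated, is not given in these sources. Reads with several matches bear on clusters of related genes. For KLF4 the authors deposited, for each consensus site, the log2 fold change between groups, the log2 CPM averaged over libraries, the F score, the p-value and its adjusted form, with no values per library, so counts were not refitted. No label ties the replicates to different animals, so these p-values measure only the spread between samples, which may be technical. Recomputing that adjustment by Benjamini and Hochberg's method, across every site, gave back the deposited values.

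Overlap meant at least 1 bp, and distances between regions run between nearest ends. The SE was the absolute log2 fold change over the square root of F, with 87.6 degrees of freedom solved from F and p. The solving step was checked on simulated data. Start sites on mm39 were derived from peak centres and deposited distances. Python 3.11.15, pandas 2.3.3, numpy 2.4.6, scipy 1.17.1 and matplotlib 3.10.9 were used. Gene order and names came from RefSeq tables of GRCm38.p6, in which 98.1% of the gene names of the PLAGL1 list and 98.0% of those of the H3K4me3 list were found. In 1892 of 1892 pairs of promoter windows that overlap on opposite strands, the letters matched. Every gene of the 38 with a peak was named, and members and lists were chosen with earlier results of these data known. The deposited files hold 0 columns of further samples, and 1 further Hox gene is not reported here.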

Additional observations from a re-analysis of the deposited data

How the results depend on the processing

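The 7 marked Hox genes were also 7 with windows of 1 kb or 10 kb, but 0 with peaks at or above the median score of the list. The 4 Hox genes with a PLAGL1 peak near the TSS became 0 within 1 kb and 0 at or above the median score, and 6 within 10 kb. Counting by position says nothing about stability, since the start sites were derived from these same peaks. The count of 0 PLAGL1 peaks on H3K4me3 became 1, at Hoxa5, when the peak centre had only to be within 1 kb, and at or above the median score no Hox PLAGL1 peak was left to count. The 1 KLF4 site was also 1 by overlap, within 3 kb and from the first to the last Hox peak of a cluster, and became 6 between flanking marked promoters, a setting chosen after seeing the data. The count of 0 KLF4 sites called was 0 under each alternative run. No paired analysis was possible because the KLF4 table has no values per library, and for the same reason no replicate could be left out. Scores near the lower limit of both lists, single libraries and the naming of each peak for 1 gene limit what counts by gene can show.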
